A study of Rattus norvegicus with 9 samples.

Results

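Members of the S100 family that are discussed as alarmins were followed in cultured rat cardiac fibroblasts of 3 ages. The 7 genes S100a1, S100a4, S100a6, S100a8, S100a9, S100a10 and S100a11 were chosen by name, with earlier results of these data known, out of 17337 genes in the count table. RNA of 9 libraries was sequenced, 3 from each age. The rats were Sprague Dawley, and their hearts were taken at embryonic day 18 (fetal), at postnatal day 1 (neonatal) or at the age of 7 weeks (adult). All cells were at passage 0, and the same medium was used at every age: DMEM with fetal bovine serum, penicillin, streptomycin and ascorbic acid, in which the flasks were grown until confluent. No group carried a mutation or received a drug. The labels name no sorting step, so each library holds the RNA of everything in the flask, and in such bulk RNA fewer cells of a type and less RNA per cell cannot be told apart. The labels do not say whether the 3 libraries of an age came from separate animals or cultures, so the p-values measure only the spread between these libraries, which may be technical.

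S100 proteins are small calcium sensors of the EF-hand type that mostly work as dimers. Inside the cell they bind target proteins when calcium rises, among them annexins, the cytoskeleton and calcium pumps. Released from stressed or dying cells, several act as alarmins: the S100a8 and S100a9 heterodimer, which neutrophils and monocytes hold in large amounts, signals through the receptors Tlr4 and Ager, and extracellular S100a4 is linked to the activation of fibroblasts in scar tissue.

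Library totals ran from 16241217 to 22850491 counts in fetal and neonatal cells and from 13392825 to 13810825 in adult cells. Levels are given as TMM-scaled CPM, a library's counts per 1000000, in which each library's total is corrected for a few genes that take up many counts. Fetal replicate 3 stood apart from the other fetal libraries. On the log2 scale over all tested genes its distance to fetal replicates 1 and 2 was 77.5 and 77.1, whereas those libraries were 24.7 apart. The summed level of 7 epithelial marker genes was 411 CPM in fetal replicate 3 against 23.9 and 26.9 CPM in the others, and all 7 were higher in it. Fibroblast markers were abundant as a sum at every age, although Col1a2, a collagen gene of the same list, was under 1 CPM as an age mean throughout. Col1a1 and Col3a1 led the list (26035 and 12971 CPM as fetal means), and Tcf21 was at 11.8 CPM in fetal cells. The summed level was at least 26495 CPM in each library. That lowest sum was in fetal replicate 3, against 53252 and 50095 CPM in fetal replicates 1 and 2. For each member, and for several other genes whose call or value it alters, results that involve fetal cells are therefore also given without fetal replicate 3. The 3 ages share 1 estimate of the spread in the fit. Leaving out this library therefore also changes the SE and the call of adult minus neonatal differences, which hold no fetal library.

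The classical alarmin pair, the S100a8 and S100a9 genes whose products form calprotectin, was barely detected. S100a9 had 0 counts in all 9 libraries, and a count of 0 allows up to 3 counts, which is 0.131 to 0.224 CPM depending on the library, counting error only. S100a8 had 8 counts in all: 0 in each fetal library, 1, 1 and 0 in neonatal replicates 1 to 3, and 1, 1 and 4 in adult replicates 1 to 3. Its highest level was 0.300 CPM, in adult replicate 3, and no fold is given because the age means lay at or under the level of 3 counts. Both genes fell under the filter on low counts and were not tested in the main analysis. When the filter was dropped, edgeR gave S100a8 an adjusted p of 0.0330 for adult against fetal cells, resting on those few reads. The counts thus hold next to no reads of the pair that defines the alarmin label, and the values below are those of the other members. Whether reads of the pair were lost through annotation or counting was not tested.

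Of the 12 neutrophil marker genes, which mark the cell type richest in this pair, Mpo and Ltf were at 0 in all 9 libraries. The list summed to 1.08 to 8.77 CPM at the fetal, 1.91 to 2.85 CPM at the neonatal and 80.3 to 219 CPM at the adult age. Most of the adult sum came from Mmp9 (77.0 ± 60.7 CPM, SD, n = 3) and Fcgr3a (56.5 ± 4.52 CPM), genes that macrophages also express. Of the 5 tested genes of the list, 4 were called higher in adult than in fetal cells (34.9% of all tested genes). All 5 were called higher than in neonatal cells (31.6%). The others were Lcn2 (6.34 ± 5.15 CPM in adult cells), Cebpe (2.64 ± 0.890 CPM) and Csf3r (1.39 ± 0.562 CPM). Lcn2 was not called against fetal cells. Without fetal replicate 3, 6 genes of the list passed the filter, and edgeR called all 6 higher in both comparisons. Of all genes tested in that fit, 37.3% and 36.1% were called higher.

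**Figure D1:**
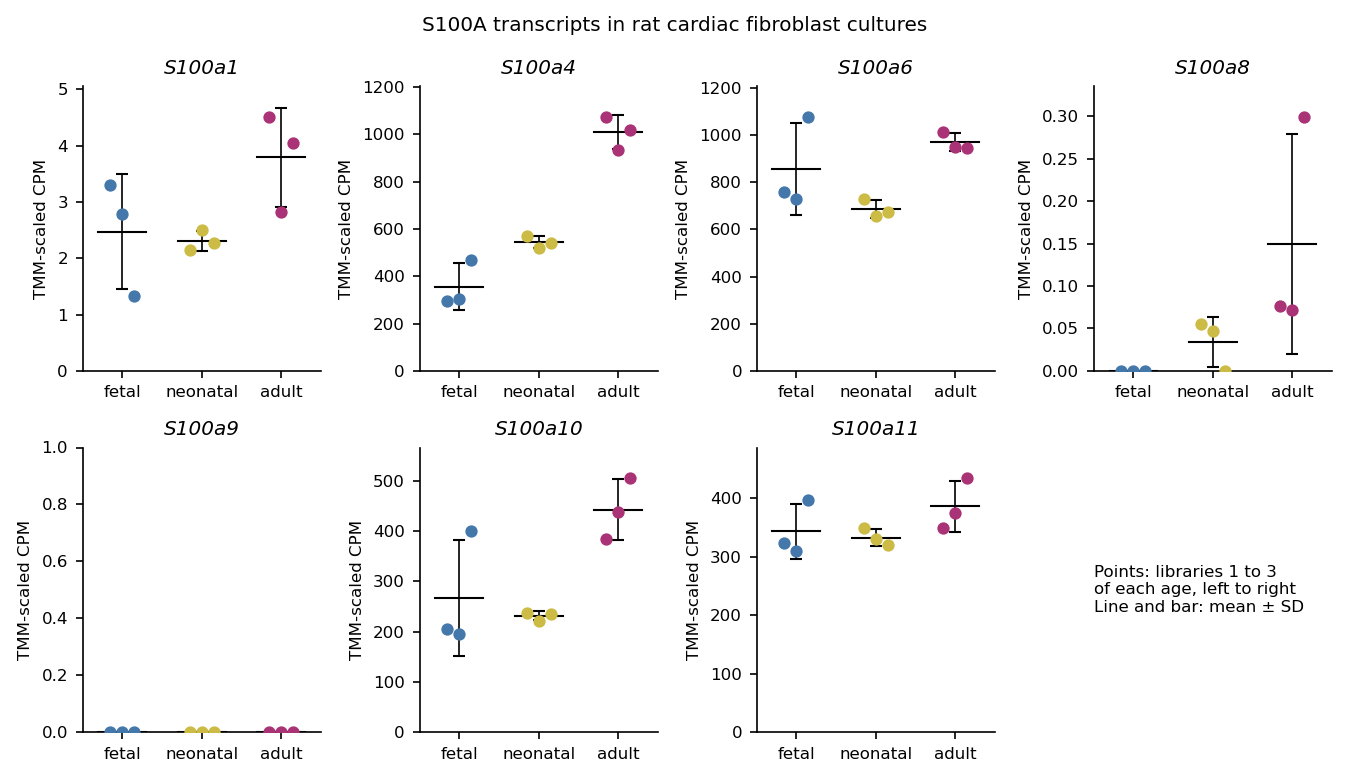
Level of each of the 7 S100A genes in TMM-scaled CPM (vertical axes start at 0) in the 3 libraries of each age, with the mean and SD of the age as line and bar. S100a4 climbs from fetal to neonatal to adult cells without overlap, fetal replicate 3 is the highest fetal library of S100a4, S100a6, S100a10 and S100a11, and S100a9 is at 0 throughout.

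S100a4 and S100a6 lie close together, with S100a5 between them, and were both abundant. S100a4 was called higher at each step of age and S100a6 from neonatal to adult cells. All 7 members are on chromosome 2 (rn6), within 3.99 Mb. S100a1 (189900667 to 189903219, minus strand), S100a4 (189997278 to 189999586, plus strand), S100a6 (190007286 to 190008511, plus strand), S100a8 (190073814 to 190074333, plus strand) and S100a9 (190097438 to 190100119, minus strand) form one group. S100a11 (193866951 to 193868502, plus strand) and S100a10 (193892589 to 193901236, plus strand) form another, 3.77 Mb further on. S100a4 ends 7699 bases before S100a6 begins. No member shares exon bases with another gene of the table, so overlapping genes did not take reads from them.

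The bases just before the start of S100a4, S100a6 and S100a9 are shown because these members of the same group differed so widely: S100a4 rose with age, S100a6 stayed abundant, and S100a9 gave no read. RefSeq sequences of the GRCr8 build, a later build than that of the count table, covered 4 of the 7 members (S100a4, S100a6, S100a9 and S100a11). Each run is the 250 bases before the transcription start, 5′ to 3′ on the gene's own strand, from chr2:178388279-178388528 (plus strand) for S100a4, chr2:178398287-178398536 (plus strand) for S100a6 and chr2:178490623-178490872 (minus strand) for S100a9. Capitals mark matches to the motifs searched.
S100a4: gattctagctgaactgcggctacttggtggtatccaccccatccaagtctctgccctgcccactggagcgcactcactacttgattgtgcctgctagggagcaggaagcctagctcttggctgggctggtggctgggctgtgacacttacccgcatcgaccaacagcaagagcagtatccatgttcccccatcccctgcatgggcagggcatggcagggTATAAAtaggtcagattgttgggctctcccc
S100a6: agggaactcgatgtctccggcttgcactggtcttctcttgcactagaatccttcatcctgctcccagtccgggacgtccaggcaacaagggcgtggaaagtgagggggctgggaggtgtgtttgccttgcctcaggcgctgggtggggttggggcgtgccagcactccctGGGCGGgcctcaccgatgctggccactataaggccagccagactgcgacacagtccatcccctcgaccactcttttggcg
S100a9: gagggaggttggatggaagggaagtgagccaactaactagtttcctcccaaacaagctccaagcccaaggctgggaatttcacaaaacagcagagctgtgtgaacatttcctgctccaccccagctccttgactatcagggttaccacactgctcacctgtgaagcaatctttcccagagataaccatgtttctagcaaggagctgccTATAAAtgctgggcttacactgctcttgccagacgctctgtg
The motifs were searched on both strands: the TATA box as TATAAA, the GC box as GGGCGG, the AP-1 site as TGANTCA, the CCAAT box by the letters of its name, and the E-box as CACGTG. The TATA box letters stood in S100a4 at position -31 and in S100a9 at position -42, counted from the start, and in 12.9% of 33469 RefSeq windows of this length. The GC box letters stood in S100a6 at position -80 and in S100a11 at positions -64 and -59, and in 30.5% of all windows. None of the 4 windows held the AP-1, CCAAT or E-box letters, which 6.34%, 34.0% and 5.59% of all windows held. These are letter matches in a short window. So S100a4, the member that rose most, and S100a9, which gave no read, carried the same TATA letters.

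S100a4, a calcium-binding partner of non-muscle myosin that has been used as a fibroblast marker and is also expressed by macrophages, was at 294, 304 and 470 CPM in fetal replicates 1 to 3. It was at 572, 520 and 543 CPM in the neonatal replicates and at 1076, 934 and 1018 CPM in the adult replicates. No library of one age reached into the range of another. In edgeR's quasi-likelihood test over 11337 genes, S100a4 rose 1.53-fold from fetal to neonatal cells (log2 0.61, SE 0.16, adjusted p = 0.0183), 1.85-fold from neonatal to adult cells (log2 0.89, SE 0.16, adjusted p = 0.00118) and 2.84-fold from fetal to adult cells (log2 1.504, SE 0.17, adjusted p = 3.39e-05). It was the one member called in all 3 comparisons. With fetal replicate 3 left out, the rise from fetal to neonatal cells was log2 0.87 (SE 0.07, edgeR adjusted p = 3.42e-06), and that from fetal to adult cells log2 1.75 (SE 0.07, adjusted p = 2.23e-09). The step from fetal to neonatal cells lost its call in edgeR with library size alone as scaling (log2 0.42, adjusted p = 0.114) and when fetal replicate 1, fetal replicate 2, neonatal replicate 1 or neonatal replicate 3 was left out (adjusted p = 0.0519, 0.0540, 0.0616 and 0.0514).

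S100a6 (calcyclin), which binds the ubiquitin ligase component Cacybp and is abundant in growing fibroblasts, was at 758, 729 and 1079 CPM in fetal replicates 1 to 3. The neonatal replicates had 731, 657 and 675 CPM and the adult replicates 1015, 949 and 946 CPM. Fetal replicate 3 lay above every adult library, whereas fetal replicates 1 and 2 lay below them. S100a6 was higher in adult than in neonatal cells by 1.41-fold (log2 0.50, SE 0.14, edgeR adjusted p = 0.0114). The other comparisons missed the threshold, at log2 -0.32 (SE 0.14, edgeR adjusted p = 0.105) for neonatal minus fetal and log2 0.18 (SE 0.14, adjusted p = 0.265) for adult minus fetal cells. The adult minus fetal difference was called without fetal replicate 3, at log2 0.38 (SE 0.06, edgeR adjusted p = 0.000171). With library size alone S100a6 was called lower in neonatal than in fetal cells (log2 -0.50, edgeR adjusted p = 0.0438), and likewise without fetal replicate 2 (log2 -0.42, adjusted p = 0.0496).

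S100a10 and S100a11 are the annexin-binding members: S100a10 joins annexin A2 in a cell-surface complex that binds plasminogen, and S100a11 binds annexin A1. S100a10 was at 206, 196 and 400 CPM in fetal replicates 1 to 3, at 238, 222 and 236 CPM in the neonatal and at 384, 437 and 505 CPM in the adult replicates. All adult libraries were above all neonatal ones, and fetal replicate 3 reached into the adult range. S100a10 rose 1.91-fold from neonatal to adult cells (log2 0.93, SE 0.25, edgeR adjusted p = 0.0104). From fetal to adult cells it rose 1.65-fold (log2 0.72, SE 0.25, edgeR adjusted p = 0.0282). Without fetal replicate 3, the library that was 1.99 times the mean of the others, that rise was log2 1.13 (SE 0.10, edgeR adjusted p = 3.01e-06). This call was lost in edgeR with library size alone (adjusted p = 0.0980), with only those ages in the fit (adjusted p = 0.0633) and without fetal replicate 1, fetal replicate 2, adult replicate 2 or adult replicate 3 (adjusted p = 0.0961, 0.0854, 0.0554 and 0.0828). Neonatal minus fetal was log2 -0.21 (SE 0.25, edgeR adjusted p = 0.544), and it turned to log2 0.20 (adjusted p = 0.125) without fetal replicate 3.

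S100a11 varied least of the tested members. It was at 324, 309 and 397 CPM in fetal replicates 1 to 3, at 348.8, 330 and 319.5 CPM in the neonatal and at 348.97, 374 and 435 CPM in the adult replicates. The lowest adult and the highest neonatal library were almost level. No comparison of S100a11 was called: neonatal minus fetal was log2 -0.05 (SE 0.11, edgeR adjusted p = 0.773), adult minus fetal 0.17 (SE 0.11, adjusted p = 0.207) and adult minus neonatal 0.21 (SE 0.11, adjusted p = 0.124). Without fetal replicate 3, edgeR called it higher in adult than in fetal cells (log2 0.28, SE 0.08, adjusted p = 0.0107) and than in neonatal cells (log2 0.21, SE 0.07, adjusted p = 0.0266). Between adult and neonatal cells the difference stayed at log2 0.21, and its SE fell with the spread that the ages share. RefSeq lists 2 S100a11-like genes elsewhere that the count table does not hold, and reads that map to several places were not counted.

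S100a1, the cardiomyocyte member that tunes the calcium release channel Ryr2 and the calcium pump Atp2a2, was low at every age. It was at 3.29, 2.78 and 1.33 CPM in fetal replicates 1 to 3, at 2.15, 2.51 and 2.27 CPM in the neonatal and at 4.52, 2.82 and 4.04 CPM in the adult replicates. Fetal replicate 3, the highest fetal library for the other tested members, was the lowest of all 9 libraries here. Adult minus fetal was log2 0.62 (SE 0.33, edgeR adjusted p = 0.123), and adult minus neonatal log2 0.71 (SE 0.34, adjusted p = 0.0903). Neonatal minus fetal was log2 -0.10 (SE 0.33, edgeR adjusted p = 0.846). S100a1 was called higher in adult than in neonatal cells without fetal replicate 3 (log2 0.70, SE 0.22, edgeR adjusted p = 0.0136). The difference itself hardly moved, and its SE fell with the spread that the ages share.

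Cardiomyocyte markers fell with age, and S100a1 was called in no comparison of all 9 libraries. The 11 measured ones summed to 9567 to 13573 CPM per fetal, 6222 to 6891 CPM per neonatal and 304 to 319 CPM per adult library. In adult cells 10 of the 11, among them Myh6, Myh7 and Actc1, were at or under 1 CPM, and nearly all of the rest was Tnnt2 (310 ± 6.35 CPM, SD, n = 3). S100a1 was at 3.79 ± 0.877 CPM (SD, n = 3) in these adult cells, from 39 to 59 counts a library. The part of cardiomyocytes in this level was not tested.

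Counted over the family, 1 of 5 tested members was called from fetal to neonatal cells, 2 from fetal to adult cells and 3 from neonatal to adult cells, all of them higher in the older cells. Of all tested genes, 36.3% were called in either direction from fetal to neonatal cells, 18.3% being higher and 18.0% lower. For adult against fetal cells 70.5% were called, 34.9% higher and 35.5% lower, and for adult against neonatal cells 63.5%, with 31.6% higher and 31.8% lower. With 5 tested members the family's shares are coarse, and no test set them against those of all genes. Libraries did not overlap for 1 of 5 members from fetal to neonatal cells (57.4% of all tested genes, 29.2% with the older age higher), for 1 from fetal to adult cells (71.8%, 35.9% higher) and for all 5 tested members from neonatal to adult cells (76.1%, 37.6% higher). The members' median log2 difference was -0.10, 0.62 and 0.71 in these comparisons, and that of all genes -0.01 in each. With fetal replicate 3 left out the members called were 1, 4 and 5 of 5, and the genes called were 40.6%, 74.8% and 72.2% of those tested.

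The members are short transcripts, and short transcripts as a class were higher in adult libraries. The exon lengths of the 7 genes in the count table were 285 to 573 bases. Over the 258 tested genes under 600 bases the median log2 difference was 0.43 for adult minus fetal, 0.51 for adult minus neonatal and -0.09 for neonatal minus fetal cells, against -0.02, -0.02 and -0.00 over the other 11079. When each library's trend on exon length was removed, edgeR still called S100a4 higher in adult than in fetal cells (log2 1.007, adjusted p = 0.000207) and in neonatal than in fetal cells (log2 0.65, adjusted p = 0.00832). The other rises to the adult age were not called then. From neonatal to adult cells S100a4 was at log2 0.36 (edgeR adjusted p = 0.0571), S100a10 at 0.44 (adjusted p = 0.125) and S100a6 at -0.07 (adjusted p = 0.624). From fetal to adult cells S100a10 was at log2 0.27 (edgeR adjusted p = 0.312). A pair of abundant members turned the other way, so that 3 members were called there but in mixed directions: from fetal to adult cells S100a6 was called lower (log2 -0.36, edgeR adjusted p = 0.0245), and so was S100a11 (log2 -0.46, adjusted p = 0.00154). With the trend removed 7904 of all 11337 tested genes were called in that comparison. Short transcripts at large thus differed in the same direction as the members did, and why was not tested.

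**Figure D2:**
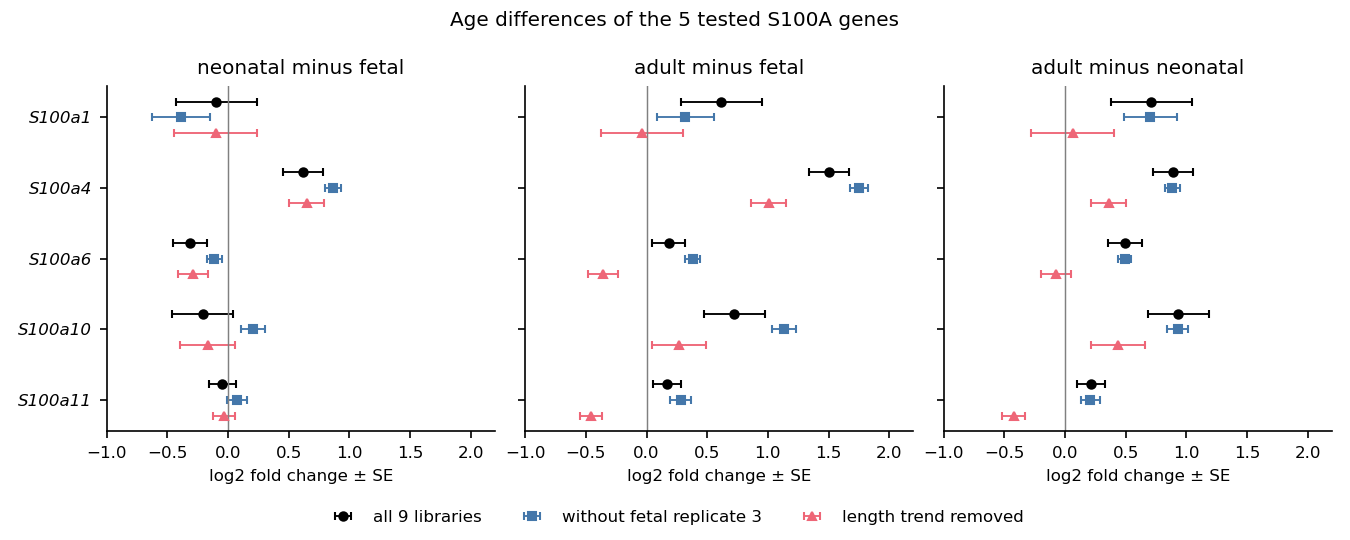
Log2 fold change with its SE (horizontal axis) for the 5 tested S100A genes in the 3 age comparisons, with all 9 libraries, without fetal replicate 3 and with each library's trend on exon length removed. S100a4 stays above 0 in every panel and setting, whereas S100a6 and S100a11 fall below 0 for adult minus fetal and adult minus neonatal cells once the length trend is removed.

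The make-up of the family's message shifted from S100a6 toward S100a4. Levels of different genes were compared as CPM per kilobase of exon. In fetal cells S100a6 led at 2128 ± 483 CPM per kilobase (SD, n = 3), before S100a11 at 1157 ± 158, S100a4 at 732 ± 203 and S100a10 at 467 ± 200. The fetal SDs of S100a4 and S100a10 overlapped, but within each fetal library S100a4 was the higher (15.3 to 16.99% of the members' summed level, against 8.93 to 12.3%). In neonatal cells the order was S100a6 (1710 ± 95.4 CPM per kilobase), S100a4 (1121 ± 53.2) and S100a11 (1120 ± 50.1), the last a pair within their spread, and then S100a10 (404 ± 15.3). In adult cells S100a6 (2413 ± 97.4 CPM per kilobase) was followed by S100a4 (2077 ± 146), S100a11 (1299 ± 148) and S100a10 (771 ± 106). S100a1 was far below them at each age, at 8.66 ± 3.58, 8.10 ± 0.649 and 13.3 ± 3.08 CPM per kilobase. Few genes were above the leading members: 60 genes had a higher level per kilobase than S100a4 in fetal, 36 in neonatal and 19 in adult cells.

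The ratio of S100a4 to S100a6 per kilobase was 0.342 ± 0.0198 in fetal, 0.656 ± 0.00862 in neonatal and 0.860 ± 0.0402 in adult cells (SD, n = 3). The ratios of the ages were separate, and the fetal ones ran from 0.321 to 0.360, fetal replicate 3 included, although both genes were high in it. As a share of the summed level of the members, S100a4 went from 16.2% to 25.7% and 31.6%, and S100a6 from 47.4% to 39.2% and 36.7%. S100a11 held 26.1%, 25.7% and 19.7%, and S100a10 held 10.1%, 9.27% and 11.7%. A ratio of this kind shows unequal change, not which gene changed. Of all counts, the members together took 0.197 ± 0.0644% at the fetal, 0.171 ± 0.00866% at the neonatal and 0.278 ± 0.0106% at the adult age.

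**Figure D3:**
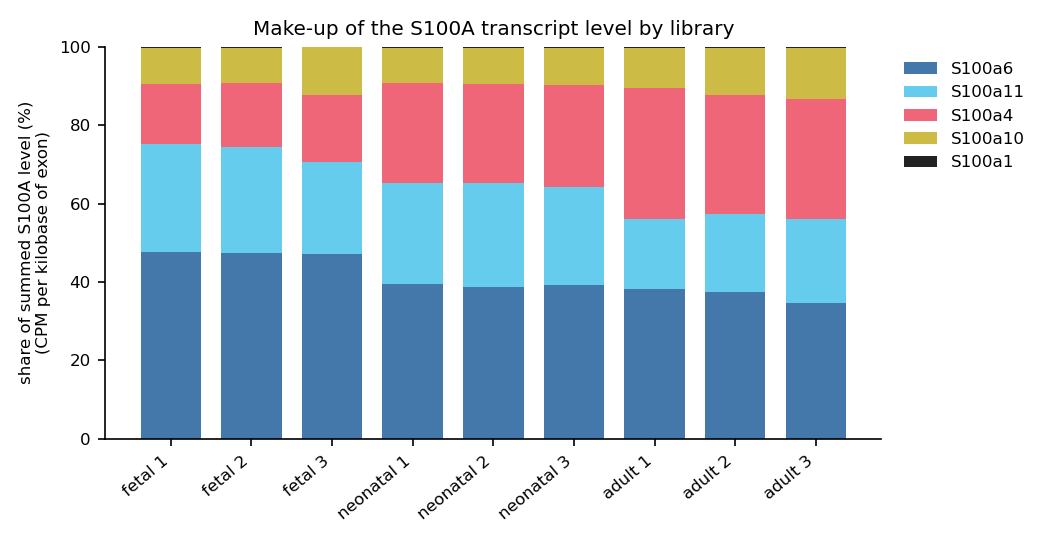
Share of each S100A gene in the summed level of the members (percent, in CPM per kilobase of exon; stacked bars from 0) in each of the 9 libraries. The mean S100a4 share is 16.2% for fetal, 25.7% for neonatal and 31.6% for adult cells, and S100a1 is a thin band at the top.

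Receptors of extracellular S100 proteins were measured from a list of 13 receptors and adaptors, 12 of which were tested. From fetal to neonatal cells 5 rose, 1 fell and 6 were not called. From fetal to adult cells 8 rose and 1 fell, and from neonatal to adult cells 6 rose and 1 fell. Of all tested genes 18.3%, 34.9% and 31.6% were higher and 18.0%, 35.5% and 31.8% lower in these comparisons. Leaving out fetal replicate 3 made these counts 5 and 2, 8 and 2, and 9 and 1. Of all genes in that fit 40.6%, 74.8% and 72.2% were called, 21.0%, 37.3% and 36.1% being higher. With all 9 libraries the list's median log2 difference was 0.09, 0.93 and 0.79 in the 3 comparisons, and that of all genes -0.01 in each.

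The Tlr4 receptor complex rose at each step. Tlr4, the receptor that calprotectin engages, was at 2.63 ± 1.39 CPM in fetal, 9.35 ± 1.27 CPM in neonatal and 23.8 ± 2.41 CPM in adult cells (SD, n = 3; adult minus fetal log2 3.18, SE 0.31, edgeR adjusted p = 1.36e-05). Its co-receptor Ly96 went from 3.03 ± 0.272 to 6.23 ± 0.454 and 15.4 ± 1.30 CPM (adult minus fetal log2 2.34, SE 0.14, edgeR adjusted p = 6.87e-07). Ly96 has 281 exon bases, and these values were not corrected for the higher level of short transcripts in adult libraries. Cd14, which hands ligands to this complex, went from 11.1 ± 4.86 to 23.9 ± 1.59 and 569 ± 67.5 CPM, and Myd88, the adaptor below it, from 25.0 ± 3.63 to 39.6 ± 1.98 and 87.2 ± 7.28 CPM. These 4 genes were called higher at both steps. In fetal replicates 1 to 3 Tlr4 was at 1.40, 2.34 and 4.14 CPM and Cd14 at 8.53, 8.02 and 16.7 CPM. Cd14 is also on the macrophage list, whose summed level rose alongside; the part of such cells in these values was not tested.

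Ager, the receptor for advanced glycation end products and the other known receptor of the family, was called in no comparison of all 9 libraries. It was at 3.997, 4.50 and 15.7 CPM in fetal replicates 1 to 3 and at 3.46 ± 0.375 CPM in neonatal and 5.002 ± 0.875 CPM in adult cells. Neonatal minus fetal was log2 -1.21 (SE 0.49, edgeR adjusted p = 0.0796) and adult minus fetal log2 -0.68 (SE 0.48, adjusted p = 0.23). In the fit that left out fetal replicate 3 these were log2 -0.30 (SE 0.20, edgeR adjusted p = 0.26) and log2 0.23 (SE 0.20, adjusted p = 0.308), and Ager was called higher in adult than in neonatal cells (log2 0.53, SE 0.18, adjusted p = 0.0228). With all 9 libraries adult minus neonatal was also log2 0.53, with an SE of 0.50. Bsg, a cell-surface protein that binds S100a9, was at 894 ± 176, 726 ± 11.3 and 831 ± 84.4 CPM and was not called either. Bsg was, without fetal replicate 3, called lower in neonatal (log2 -0.45, edgeR adjusted p = 0.00061) and in adult (log2 -0.26, adjusted p = 0.00694) than in fetal cells. Alcam, an adhesion receptor related to Ager, fell from 100.2 ± 29.6 to 62.1 ± 1.79 CPM in neonatal cells (log2 -0.69; log2 -0.42 without fetal replicate 3, edgeR adjusted p = 0.0211) and rose to 200 ± 34.1 CPM in adult cells (adult minus neonatal log2 1.68, SE 0.20, edgeR adjusted p = 8.02e-05). Diaph1, which carries the Ager signal to actin, was near 92 CPM in fetal and neonatal cells and at 184 ± 12.4 CPM in adult cells (adult minus neonatal log2 1.009, SE 0.08, edgeR adjusted p = 4.1e-06). Of the kinases below Myd88, Irak4 rose from 19.1 ± 3.99 CPM in fetal to 34.3 ± 0.734 CPM in neonatal cells and was at 34.9 ± 0.717 CPM in adult cells. Irak1 was between 106 and 120 CPM as an age mean; its adult minus fetal difference (log2 0.16, edgeR adjusted p = 0.0408) was not called without fetal replicate 3 (adjusted p = 0.0678). Traf6, a ligase at the end of this arm, was with all libraries the one list gene called lower in adult than in fetal cells (log2 -0.98, SE 0.12, edgeR adjusted p = 5.99e-05).

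**Figure D4:**
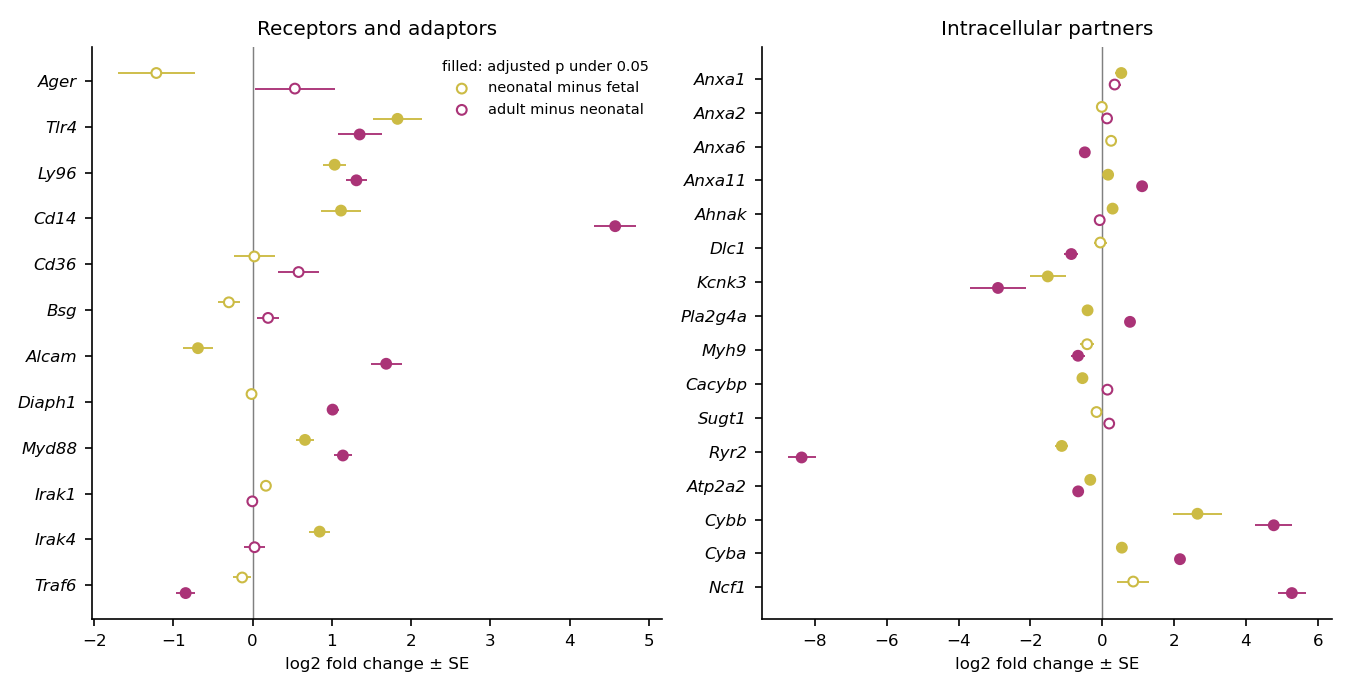
Log2 fold change with its SE (horizontal axes) of the 12 tested receptors and adaptors and of intracellular partners of S100 proteins, for neonatal minus fetal and adult minus neonatal cells; filled points have an edgeR adjusted p under 0.05. Tlr4, Ly96, Cd14 and Myd88 are above 0 and filled in both comparisons, and Ryr2 lies farthest to the left.

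Of 18 intracellular partners, all tested, 5 rose and 6 fell from fetal to neonatal cells, 8 rose and 6 fell from fetal to adult cells, and 6 rose and 6 fell from neonatal to adult cells. Leaving out fetal replicate 3 gave 6 and 6, 9 and 7, and 10 and 6. Of all genes in that fit 40.6%, 74.8% and 72.2% were called, 21.0%, 37.3% and 36.1% being higher. With all 9 libraries the median log2 difference was -0.03, 0.08 and 0.14, and that of all genes -0.01 in each. Rises and falls were thus mixed, as they were over all tested genes. Of those, 18.3%, 34.9% and 31.6% were higher and 18.0%, 35.5% and 31.8% lower in these comparisons.

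The calcium-handling partners of S100a1 were called lower at both steps of age. Ryr2, the calcium release channel of heart muscle, went from 77.1 ± 10.4 CPM in fetal to 35.3 ± 3.12 CPM in neonatal and 0.0998 ± 0.173 CPM in adult cells (SD, n = 3). Atp2a2, the calcium pump, went from 881 ± 42.2 to 699 ± 18.5 and 439 ± 4.03 CPM (adult minus fetal log2 -1.005, SE 0.07, edgeR adjusted p = 1.03e-06). With the length trend removed its step from neonatal to adult cells was log2 -0.09 (edgeR adjusted p = 0.211).

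Subunits of the leukocyte NADPH oxidase, to which S100a8 and S100a9 deliver arachidonic acid, rose in adult cells. Cybb went from 1.05 ± 1.57 CPM in fetal to 6.38 ± 1.22 CPM in neonatal and 175 ± 14.8 CPM in adult cells, and Ncf1 from 2.47 ± 2.06 to 4.39 ± 0.260 and 171 ± 25.5 CPM. The fetal means rest on fetal replicate 3: Cybb was at 0.162, 0.132 and 2.87 CPM and Ncf1 at 1.46, 1.10 and 4.83 CPM in fetal replicates 1 to 3. Ncf1 was called higher in neonatal than in fetal cells only without it (log2 1.79, SE 0.23, edgeR adjusted p = 0.000213; log2 0.86, adjusted p = 0.163 with it). Cyba (382 ± 9.70 CPM) was likewise highest in adult cells, and these 3 genes were called higher there than at both younger ages. Macrophages hold this oxidase as well, and the part of macrophage markers in these values was not tested. The adult cells thus held the oxidase message while the pair that serves it in neutrophils was at 0 to 4 counts a library.

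S100a4's binding partner Myh9, a non-muscle myosin heavy chain, was at 12.9 ± 3.0 CPM in fetal and 6.04 ± 0.550 CPM in adult cells (log2 -1.10, SE 0.19, edgeR adjusted p = 0.000714). With the length trend removed the difference was log2 -0.23 (edgeR adjusted p = 0.285). The Myh9 level was low at every age for a gene that fibroblasts express abundantly, as was that of Col1a2, and the reason was not tested. The S100a6 partner Cacybp fell from 91.1 ± 19.9 CPM in fetal to 62.2 ± 1.63 CPM in neonatal cells (log2 -0.55, SE 0.13, edgeR adjusted p = 0.0114; log2 -0.36 without fetal replicate 3, adjusted p = 0.00112). Ahnak, a giant scaffold that the S100a10 and annexin A2 complex binds, rose from 1053 ± 19.3 to 1285 ± 25.6 CPM over the same step (log2 0.29, SE 0.07, edgeR adjusted p = 0.0152). Pla2g4a, a phospholipase that S100a10 binds, fell from 45.9 ± 1.16 CPM in fetal to 34.6 ± 1.40 CPM in neonatal cells and rose to 59.1 ± 3.19 CPM in adult cells. Dlc1, a tumour suppressor that S100a10 binds, was lowest in adult cells, at 62.7 ± 20.9 CPM against 118 ± 4.99 CPM in fetal cells (log2 -0.92, SE 0.19, edgeR adjusted p = 0.00211). Sugt1, an S100a6 partner, was between 65.4 and 74.7 CPM as an age mean and was not called.

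Annexins, the membrane-binding partners of S100a10 and S100a11, went both ways. Of 9 tested, 3 rose and 3 fell from fetal to neonatal cells, 4 rose and 3 fell from fetal to adult cells, and 4 rose and 1 fell from neonatal to adult cells. Without fetal replicate 3 the counts were 4 and 3, 5 and 3, and 7 and 1. Of all genes in that fit 40.6%, 74.8% and 72.2% were called, 21.0%, 37.3% and 36.1% being higher. With all 9 libraries the median log2 difference was 0.09, 0.12 and 0.52, and that of all genes -0.01 in each. All tested genes also went both ways, with 18.3%, 34.9% and 31.6% higher and 18.0%, 35.5% and 31.8% lower. Anxa2, the obligate partner of S100a10, was at 1198 ± 151, 1188 ± 42.1 and 1303 ± 37.4 CPM (SD, n = 3) and was not called (adult minus neonatal log2 0.13, SE 0.10, edgeR adjusted p = 0.247). Without fetal replicate 3, edgeR called Anxa2 higher in adult than in fetal (log2 0.23, adjusted p = 0.00277) and neonatal cells (adjusted p = 0.0316).

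The level of S100a10 relative to this partner was highest in adult cells. The ratio of S100a10 to Anxa2 in CPM was 0.218 ± 0.0638 in fetal, 0.195 ± 0.00717 in neonatal and 0.339 ± 0.0413 in adult cells (SD, n = 3). Every adult ratio (0.295 to 0.377) was above every neonatal one (0.190 to 0.203), and the highest fetal ratio, 0.292, lay just under the adult range. S100a10 has 573 exon bases and Anxa2 1337, and the ratio was not corrected for the higher level of short transcripts in adult libraries. With the length trend removed S100a10 from neonatal to adult cells was log2 0.44 (edgeR adjusted p = 0.125). Anxa1, the S100a11 partner, rose from 391 ± 99.1 CPM in fetal to 565 ± 18.3 CPM in neonatal and 717 ± 112 CPM in adult cells (adult minus fetal log2 0.87, SE 0.17, edgeR adjusted p = 0.00123). Anxa4 rose the most of the annexins from fetal to adult cells, from 116 ± 18.5 to 195 ± 4.85 and 459 ± 11.1 CPM, and Anxa5 fell from 650 ± 25.2 to 502 ± 7.85 and 476 ± 41.9 CPM. Anxa11 rose from 129 ± 2.02 CPM in neonatal to 279 ± 7.72 CPM in adult cells, whereas its small step from fetal cells (log2 0.16) turned to log2 -0.01 with library size alone. Anxa7 was highest in adult cells (244 ± 2.86 CPM) and Anxa6 in neonatal cells (1111 ± 16.02 CPM). Anxa3 was at 160 ± 79.5, 21.9 ± 1.88 and 64.1 ± 6.51 CPM, called lower in neonatal than in fetal cells and higher in adult than in neonatal cells. It was called lower in adult than in fetal cells (log2 -1.31, SE 0.29, edgeR adjusted p = 0.00304). Fetal replicates 1 to 3 had 115, 112 and 251 CPM of Anxa3.

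The table held 9 other S100 genes, of which 4 passed the filter. From fetal to neonatal cells 3 rose (S100a13, S100a16 and S100b), from fetal to adult cells 2 rose (S100a13 and S100a16), and from neonatal to adult cells 1 rose (S100a13) and 1 fell (S100b). These counts were the same without fetal replicate 3, where 21.0%, 37.3% and 36.1% of all tested genes were called higher. S100a13, a partner in the unconventional release of growth factors that lies beside S100a1, went from 6.68 ± 0.408 to 14.5 ± 2.08 and 22.5 ± 1.58 CPM (adult minus fetal log2 1.75, SE 0.13, edgeR adjusted p = 2.28e-06). With the length trend removed its last step was log2 0.11 (edgeR adjusted p = 0.471). S100a16 went from 41.0 ± 2.76 to 79.7 ± 4.46 and 84.2 ± 2.70 CPM, and its step from neonatal to adult cells was not called (log2 0.08, SE 0.07, edgeR adjusted p = 0.357). S100b, a glial member, was low, at 1.117 ± 0.572, 3.47 ± 0.408 and 1.68 ± 0.340 CPM. The list's median log2 difference was 1.04, 0.82 and -0.08, and that of all genes -0.01 in each. Over all tested genes 18.3%, 34.9% and 31.6% were higher and 18.0%, 35.5% and 31.8% lower.

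The stretch of chromosome from S100a1 to S100a10 holds 25 genes of the table. Of the 18 that are no members, 4 passed the filter (S100a13, S100a16, S100a3 and Lce1m), 13 were at or under 1 CPM in every library, and 9 had no count. The genes without a count included Ivl, Sprr3 and Lce1f, which serve the skin barrier and lie between S100a9 and S100a11.

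Macrophage markers rose with age alongside S100a4, and to the adult age alongside S100a10, which was not called from fetal to neonatal cells. All 14 macrophage genes were above every fetal and neonatal library in each adult one. Of all tested genes, 35.9% were above every fetal library in this way and 37.6% above every neonatal one. From fetal to neonatal cells 10 of the 14 were called higher (18.3% of all tested genes) and 4 were not called. Without fetal replicate 3 all 14 were called higher there (21.0%). The 14 genes summed to 15.8 to 82.0 CPM per fetal, 178 to 197 CPM per neonatal and 4946 to 6904 CPM per adult library. The highest fetal sum was that of fetal replicate 3, against 16.9 and 15.8 CPM in fetal replicates 1 and 2. The 6 monocyte genes summed to 12.2 to 14.9, 30.7 to 35.1 and 175 to 546 CPM, and the 5 dendritic cell genes to 7.12 to 10.5, 11.6 to 14.6 and 8.61 to 11.9 CPM. Since macrophages express S100a4, S100a6, S100a10 and S100a11 as well, these values stand beside each rise to the adult age, and their part in it was not tested. In adult libraries S100a4 was at 934 to 1076 CPM beside a macrophage sum of 4946 to 6904 CPM. In fetal replicates 1 and 2 it was at 294 and 304 CPM beside 16.9 and 15.8 CPM. A marker sum does not give a share of cells, so the part of macrophages in S100a4 was not tested at any age.

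The remaining marker lists were smaller or went another way. Fibroblast markers summed to 26495 to 53252, 70675 to 76919 and 26667 to 34608 CPM in fetal, neonatal and adult libraries, endothelial markers to 7.56 to 9.17, 16.8 to 20.2 and 80.3 to 94.7 CPM, and mural cell markers to 230 to 438, 658 to 664 and 122 to 245 CPM. Schwann cell markers summed to 10.5 to 10.7, 6.88 to 7.81 and 12.1 to 14.4 CPM, and erythroid markers to at most 0.440 CPM. Epithelial markers were at 6.04 to 6.47 CPM in neonatal and 2.53 to 2.55 CPM in adult libraries, far under fetal replicate 3. The fetal library that was richest in epithelial and macrophage markers was thus also the one with the most S100a4, S100a6, S100a10 and S100a11 (1.57, 1.45, 1.99 and 1.25 times the mean of the other fetal libraries), and their part in those values was not tested.

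**Figure D5:**
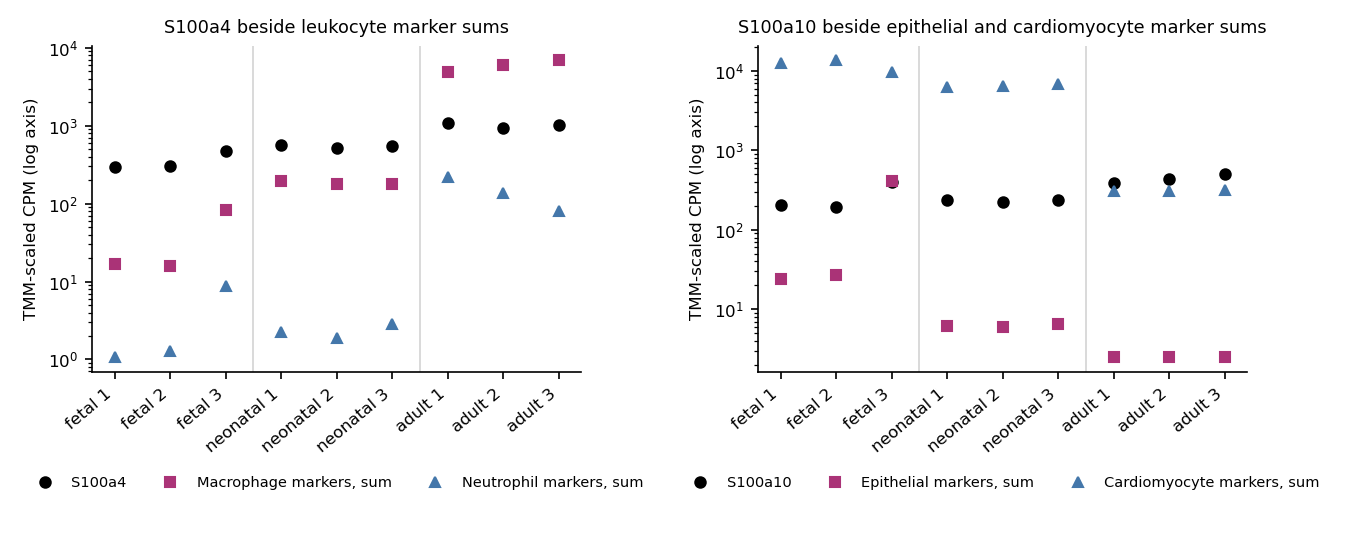
Level of S100a4 beside the summed macrophage and neutrophil markers (left), and of S100a10 beside the summed epithelial and cardiomyocyte markers (right), in TMM-scaled CPM on a log axis for each of the 9 libraries. Macrophage markers reach 4946 to 6904 CPM in adult libraries while S100a4 is between 934 and 1076 CPM, and fetal replicate 3 has the highest epithelial sum, 411 CPM.

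The genes with the most similar course to each member were sought as those with the smallest Euclidean distance between log2 CPM profiles, each centred on its mean over the 9 libraries. For S100a4 they were Ifi35 (distance 0.317), Car6 (0.364) and Cyb5a (0.382), and for S100a6 they were Zmat2 (0.142), Isy1 (0.166) and Tpm3 (0.189). For S100a10 they were Ift27 (0.351), Clic1 (0.401) and Nfatc1 (0.403), and for S100a11 they included Ccz1b (0.167) and Cfl1 (0.186). For S100a1 the nearest were Acot11 (0.593), Trex1 (0.602) and Dhrsx (0.609), farther off than for any other member. Among the tested members S100a6 and S100a11 were the most alike (distance 0.520), and S100a1 and S100a4 the least (1.89). No member was among the nearest genes of another. With Pearson correlation in place of distance, 0 of the 3 genes remained for S100a1 and S100a10 and 1 of 3 for the others. The distances describe 9 libraries that share their ages and the same outlying fetal library.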

How the data were processed

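RNA of 9 rat cardiac fibroblast libraries, 3 per age, was analysed from a deposited table of raw counts per gene. According to the table's header, the authors' counts come from featureCounts 1.6.3 and an rn6 annotation (per the file headers, no option beyond annotation and output was set), so strand was not used and reads mapping to several places were left out, as is that program's default. FastQC, Trimmomatic 0.39, STAR 2.5.2b, Subread 1.6.3 and DESeq2 are named in the submitters' processing notes. Exon lengths in bases come from the same deposited table, and a second deposited table holds normalized signal, which served as a check only.

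The members and all lists were chosen with earlier results of these data known. Genes passing filterByExpr (minimum count 10) were fitted, 11337 of 17337, which left in 5 of the 7 members. TMM scaling and edgeR 4.0.16 (R 4.3.3; robust glmQLFit and two-sided glmQLFTest, all 9 libraries in 1 fit, age as the only term) gave each difference, with Benjamini-Hochberg adjustment over all genes tested and a threshold of 0.05. The SE was derived from the fold change and its F statistic. A prior count of 2 was used for log2 CPM. Genes of the lists are named where a mean reached 10 CPM or a role with a member is stated; a few such genes are not reported here.

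Replicates of an age were compared by chi-square tests of their counts. No pair agreed within sampling noise, so none was treated as a repeat deposit of another; this does not show that they are independent cultures. The fit was tested on simulated counts. Alternatives were DESeq2 1.42.0, its size factors or library size alone as scaling, no filter, only the ages compared, each library left out, a replicate block, a trend on exon length (loess, span 0.5) removed, and a test against a log2 fold change of 1.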

Additional observations from a re-analysis of the deposited data

How the results depend on the processing

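Library size alone moved the median log2 difference of all genes by -0.17 for neonatal minus fetal and -0.11 for adult minus fetal cells, and differences under it are relative to that shift. It left 1 member and 7879 genes called from fetal to adult cells. The fit of only those ages also called 1 member, and 7124 genes. The fit of only neonatal and adult cells called 5 members, where the main analysis called 3 members and 7197 genes. Tested against a log2 fold change of 1, edgeR called 0, 1 and 0 members and 360, 2648 and 1837 genes from fetal to neonatal, fetal to adult and neonatal to adult cells, against 4114, 7987 and 7197 in the main analysis; S100a4 from fetal to adult cells was the member that passed. With the length trend removed 1 member and 4206 genes were called from fetal to neonatal cells, and 3 members and 7904 genes from fetal to adult cells. From neonatal to adult cells 1 member was called (S100a11, lower). That setting turned S100a1 (log2 -0.0372), S100a6 (-0.36) and S100a11 (-0.46) below 0 for adult minus fetal, and S100a6 (-0.0737) and S100a11 (-0.42) for adult minus neonatal cells; the cause was not tested.

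With each library left out in turn, 0 to 1, 1 to 4 and 3 to 5 members and 2476 to 4679, 7509 to 8616 and 6210 to 8322 genes were called in these comparisons. Neonatal minus fetal turned above 0 for S100a1 without fetal replicate 1 (0.16) or fetal replicate 2 (0.00145), and for S100a10 (0.20) and S100a11 (0.0718) without fetal replicate 3; none of these was called. Without fetal replicate 2 the 1 member called from fetal to neonatal cells was S100a6 (lower), not S100a4. The ranges were log2 -0.38 to 0.16 for S100a1, -0.39 to 0.20 for S100a10 and -0.12 to 0.0718 for S100a11. No pairing by replicate number was seen: the 9 correlations of same-numbered libraries ran from -0.0649 to 0.0521, and 3 libraries correlated best with their own number. These are correlations of deviations from means of 3 libraries per age, so a pairing could be missed. The replicate block kept 1, 2 and 3 members called and called 3713, 7801 and 6985 genes.

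DESeq2 and its size factors changed no count of members called, and dropping the filter added S100a8 from fetal to adult cells. S100a8 and S100a9 are limited by depth: 3 counts are 0.131 to 0.224 CPM.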
